A study of Mus musculus with 37 samples.

Results

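The olfactory bulb of wild-type mice was compared with the cortex, cerebellum and brain stem of the same animals. All samples labelled with 2 copies of the chromosome 7 segment were taken, which gave 15 of the 37 arrays of the series. They cover 12 region samples, 4 from each of 3 mice, because 3 of these samples were hybridised 2 times and their arrays were averaged. The question is which genes are expressed at a different level in the bulb than in the rest of the brain of a +/+ male.

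The +/+ mice are male F1 hybrids of C57BL/6N and 129Sv with no engineered change, and the labels used here give no age. They belong to a study of the segment syntenic to human 16p11.2, in which heterozygous df/+ mice carry 1 copy and heterozygous dp/+ mice carry 3. The 2 df/+ mice and the 2 dp/+ mice with all 4 regions profiled, of the same hybrid background and sex, were used only to measure the same contrast in other animals. Total RNA of each region, whole tissue with no sorting of cells, was read on gene-level Affymetrix arrays. In such bulk samples, fewer cells of a type and less RNA per cell cannot be told apart.

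The olfactory bulb is the first relay of the sense of smell. Axons of sensory neurons in the nasal epithelium enter it in its outer nerve layer, wrapped by olfactory ensheathing glia, and end in glomeruli on mitral and tufted cells, the glutamatergic projection neurons. Most bulb neurons are GABAergic granule and periglomerular cells without a long axon, some of them dopaminergic. They are replaced throughout life by neuroblasts that migrate from the walls of the lateral ventricles.

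Values are log2 RMA values, so a difference of 1 is a factor of 2. Each gene was tested by limma with the mouse as a block, as the bulb minus the mean of the other 3 regions, with p adjusted over 19938 genes and a threshold of 0.05. The SE printed after ± comes from a variance pooled over the regions, so neither it nor p measures the spread of bulbs between mice alone. Where bulbs vary more than the other regions do, the SE understates that spread. Correlations across genes, which are not independent replicates, lay between 0.9913 and 0.9967 among the 3 bulbs and between 0.9487 and 0.9783 between a bulb and any other region sample. The second principal component, with 27.4% of the variance, placed the 3 bulbs between 33.95 and 42.67 and the 9 other samples at 6.68 or below. The brain stems differed most among themselves, with a median SD between mice of 0.134, against 0.123 for bulbs, 0.098 for cortices and 0.081 for cerebella. The choroid plexus gene Ttr was at 8.95 in the brain stem of mouse 3 and at 12.39 and 12.98 in those of mice 1 and 2. Neurod6, a gene of cortical pyramidal neurons, was at 8.50 in the brain stem of mouse 2 and at 5.99 in that of mouse 3. Leaving out 1 mouse with all its regions left between 412 and 429 genes at least 2-fold higher in the bulb and between 329 and 373 at least 2-fold lower.

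The label of the tissue was checked against defining genes of its cells. Omp, the olfactory marker protein of mature sensory neurons, was at 11.24, 11 and 10.75 in the bulbs of mice 1, 2 and 3, and between 6.26 and 7.02 in the other 9 samples (median 6.78). Tbx21, a T-box factor that in the brain marks mitral and tufted cells, was at 9.03, 9.20 and 9.17 in bulbs and at 6.39 to 6.78 elsewhere (median 6.54). Th, tyrosine hydroxylase, was at 12.56, 12.44 and 12.61 in bulbs and at 8.14 to 10.98 elsewhere (median 8.65). For each of the 3 genes all bulbs lay above all other samples, so the tissue matched its label.

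The bulb differed from the other regions in 7273 genes, 36.5% of those tested. Of these, 3050 (15.3%) were higher and 4223 (21.2%) lower in the bulb, and 8768 genes passed an unadjusted p of 0.05. With 1 difference per mouse, 2580 were higher and 3699 lower. Counts of list members below stand against the 15.3% and 21.2% of all genes. At least 2-fold differences numbered 414 genes (2.08%) higher and 349 (1.75%) lower. Each of these 414 and 349 genes had the same sign in each of the 3 mice. The balance of the 2-fold counts depended on the regions: it was 323 higher and 448 lower without the cerebellum, 536 and 418 without the cortex, and 463 and 358 without the brain stem. Against the mean of all 3 regions, 78 genes were at least 4-fold higher and 33 at least 4-fold lower, and 21 against 4 passed 8-fold.

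A difference from the mean of 3 regions can come from 1 of them, so each region was also compared alone. Higher than in each of the 3 regions were 1074 genes (5.39%), and lower than in each were 1298 (6.51%), a count that was 751 without mouse 2 and 2110 without the cerebellum. Among the genes at least 2-fold higher in the bulb, 338 were higher than in each region, and in 335 all 3 bulbs lay above all 9 other samples, a pattern of 1201 genes (6.02%). Among those at least 2-fold lower, 265 were lower than in each region, and in 264 all 3 bulbs lay below the other 9 samples, as in 1502 genes (7.53%). The cortex was the region nearest to the bulb for 224 of the 414 higher genes, the brain stem for 123 and the cerebellum for 67. For the 349 lower genes the split was 120, 108 and 121.

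**Figure D1:**
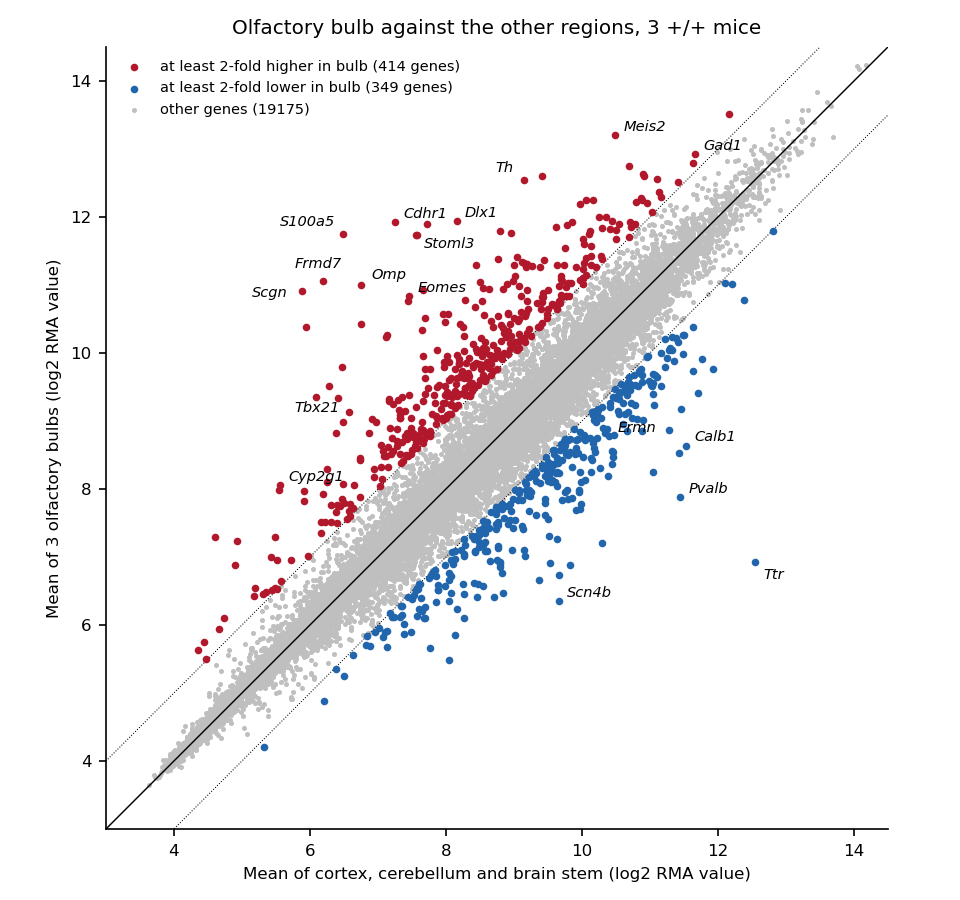
Each point is 1 of 19938 genes, with the mean log2 RMA value of the 3 bulbs on the vertical axis and the mean of cortex, cerebellum and brain stem of the same 3 +/+ mice on the horizontal axis; the solid line is equality and the dotted lines are 2-fold differences. The 414 red genes lie above and the 349 blue genes below the line, with S100a5 and Ttr farthest from it.

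The gene with the largest positive difference was S100a5, a calcium-binding protein found in olfactory sensory neurons. It was at 12.25, 11.80 and 11.19 in bulbs and at 6.35 to 6.6 elsewhere (median 6.48), a difference of 5.27 ± 0.12 (SE) or 38.5-fold (adjusted p = 3.17e-14). Mouse 1 had the highest bulb value and mouse 3 the lowest, and none came near the other samples. Scgn, secretagogin, a calcium-binding protein of bulb interneurons, was at 11.10, 10.70 and 10.92 in bulbs and at 5.24 to 6.62 elsewhere (32.5-fold). Frmd7, a FERM domain protein, was 29.1-fold higher. Cdhr1, a cadherin of mitral and tufted cells and of photoreceptors, was at 11.86, 11.85 and 12.05 in bulbs, with a mean of 8.39 in cortex, 6.21 in cerebellum and 7.15 in brain stem (25.4-fold). Cpa6, a carboxypeptidase, was 21.7-fold higher, and Omp 19.1-fold (4.25 ± 0.10, adjusted p = 5.49e-14). Of the 15 genes with the largest positive differences, Stoml3, Doc2g and Ms4a15 were each about 18-fold higher (4.18 ± 0.13, 4.18 ± 0.09 and 4.17 ± 0.09). Shisa3 was 12.7-fold higher, and Akr1c18 (3.32 ± 0.14) and Trh, the precursor of thyrotropin-releasing hormone (3.32 ± 0.10), followed. The remaining 3, Dlx1, Th and Eomes, are described with their cell types.

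Projection neuron genes were mostly higher in the bulb. Of 13 measured, 9 were higher and 2 lower, with a median difference of 0.84 against 0.01 over all genes. Eomes, a T-box factor of glutamatergic lineages, was at 10.63, 10.80 and 11.09 in bulbs. Its cerebellar values of 9.10, 9.30 and 9.95 came nearest, while the cortex had a mean of 6.45 and the brain stem 6.48. The difference from the cerebellum alone passed the test (adjusted p = 1.18e-05). Nmb, neuromedin B, a bombesin-like peptide, was at 10.95, 9.80 and 10.04 in bulbs and at 7.03 to 7.37 elsewhere, 8.72-fold higher. Tbx21 was 5.92-fold higher (2.56 ± 0.08).

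A marker of glutamatergic transmission shared with the cortex behaved otherwise. Slc17a7, the vesicular glutamate transporter VGLUT1, was at 12.02, 12.18 and 12.27 in bulbs, and its difference of 0.18 ± 0.11 did not pass the test (adjusted p = 0.223). The cortical mean of 12.66 was above the bulb mean of 12.15 (adjusted p = 0.00681), the cerebellar mean of 12.03 did not differ from it by the test (adjusted p = 0.535), and the brain stem mean of 11.23 was below it (adjusted p = 4.42e-05).

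Transcription factors of bulb interneurons were mostly higher than the mean of the regions. Of 21 measured, 17 were higher and none lower, 13 of them at least 2-fold, with a median difference of 1.70. Region by region, 18 of the 21 were higher and 2 lower than in the cortex (16.4% and 19.3% of all genes), 16 higher and 5 lower than in the cerebellum (16.3% and 21.3%), and 17 higher and none lower than in the brain stem (14.1% and 18.5%). Against the mean, 2 were lower without the cortex, 2 without the brain stem and 1 without the cerebellum. Dlx1, a homeobox factor of forebrain GABAergic neurons, was at 11.70, 11.98 and 12.13 in bulbs, with means of 9.53 in cortex, 6.59 in cerebellum and 8.35 in brain stem (3.78 ± 0.14, 13.7-fold, adjusted p = 4.65e-12). Its neighbours in the family, Dlx5 and Dlx2, were 9.57-fold and 8.60-fold higher. For all 3 Dlx genes the cortex had the second-highest mean. Sp8, a zinc finger factor of periglomerular cells, had no second region above the rest. It was at 9.49, 9.50 and 9.59 in bulbs and at 6.13 to 6.47 in all 9 other samples (9.45-fold). Meis2, another homeobox factor, was at 13.07, 13.17 and 13.37 in bulbs and had means of 11.97 in cortex and 11.35 in brain stem but 8.13 in cerebellum. Its difference from the mean was 6.58-fold, and it also passed the test against the cortex alone (adjusted p = 3.88e-06) and the brain stem alone (adjusted p = 3.46e-08).

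Pax6, which acts in the choice of the dopaminergic fate by bulb interneurons, was higher than the mean of the other regions (1.20 ± 0.09) but not the highest. It was at 10.25, 10.06 and 10.13 in bulbs and at 10.64, 10.57 and 10.54 in cerebella, and this difference passed the test (adjusted p = 0.00366). Lhx2, a LIM homeobox factor, was likewise below the cortex (9.77 against 10.46, adjusted p = 4.32e-05) while 1.02 ± 0.08 above the mean of the 3, a difference that was 0.02 without the cerebellum (adjusted p = 0.88).

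Genes listed for granule and periglomerular cells were higher in 10 of 13 and lower in 2, all 12 by at least 2-fold. Cpne4, a copine, was at 11.25, 11.40 and 11.50 in bulbs and at a mean of 10.06 in cortex (6.18-fold over the mean of the regions). Synpr, synaptoporin, a synaptic vesicle protein, was at 11.28, 10.99 and 10.92 in bulbs and at 8.25 to 9.59 elsewhere (4.24-fold). Pcp4l1 was 3.26-fold higher. Calb1, calbindin, which marks some periglomerular cells, went the other way: it was at 8.61, 8.83 and 8.47 in bulbs and at 10.47 to 12.79 in the other samples (-2.89 ± 0.09).

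Migrating neuroblasts were represented by 17 measured genes, of which 12 were higher and 2 lower (median 0.74). Region by region, 11 were higher and 2 lower than in the cortex (16.4% and 19.3% of all genes). Against the cerebellum 14 were higher and 1 lower (16.3% and 21.3%), and against the brain stem 8 were higher and 4 lower (14.1% and 18.5%). Dcx, doublecortin, a microtubule protein of migrating neurons, was at 11.14, 11.21 and 11.57 in bulbs and at 7.06 to 9.38 elsewhere (7.23-fold, 2.85 ± 0.09). Prokr2, the receptor of prokineticins that guide neuroblasts to the bulb, was at 8.92, 8.88 and 9.46 in bulbs and at 6.45 to 8.05 elsewhere (3.41-fold). Sox4 was 4.03-fold and Tiam2 2.43-fold higher. Stmn2, a stathmin of growing axons on the same list, was lower (-1.01 ± 0.07). Genes of dividing cells did not share this pattern. Of 20 measured, 1 was higher (Mcm7, 0.36 ± 0.07) and 1 lower (Cenpa, -0.29 ± 0.09), neither of which passed without the cortex (adjusted p = 0.0501 and 0.265), and the median difference was 0. Cenpa did not pass without mouse 1 or without mouse 3 either. The dividing-cell genes were dim, with a median percentile of level of 34 in the bulb, against 85.1 for the neuroblast list. What part the low level has in the few calls was not tested.

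**Figure D2:**
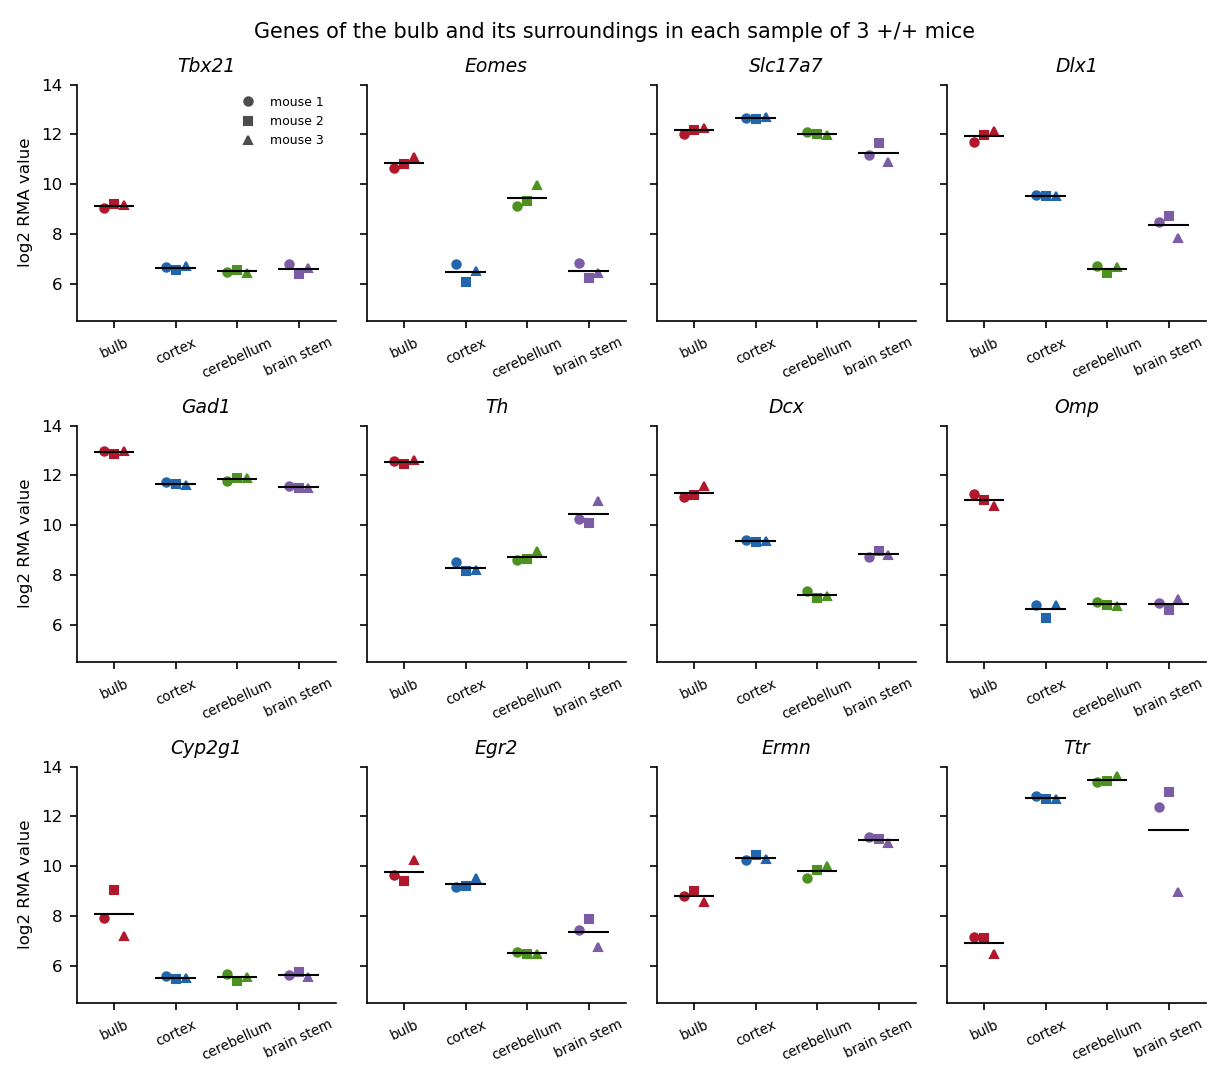
The log2 RMA value of 12 genes is plotted for each of the 12 region samples of +/+ mice, with the bulb at the left of each panel; symbols are mice and the black line is the mean of 3. Omp, Tbx21 and Cyp2g1 stand apart in the bulb alone, Eomes is also raised in the cerebellum and Th in the brain stem, and Ttr is lowest in the 3 bulbs, followed by the brain stem of mouse 3.

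Dopamine genes divided. Th, the rate-limiting enzyme of dopamine synthesis, was 10.4-fold higher (3.38 ± 0.12, adjusted p = 4.14e-12). The brain stems, at 10.25, 10.09 and 10.98, came next, and the bulb exceeded them too (adjusted p = 1.58e-08). The dopamine transporter Slc6a3 was at 9.45, 9.60 and 9.77 in bulbs, above cortex and cerebellum and inside the range of the brain stems, which had 10.28, 9.42 and 11.20. Ddc, which makes dopamine from the product of Th, was at 7.58, 7.61 and 7.48 in bulbs, against means of 7.78 in cortex, 7.35 in cerebellum and 9.52 in brain stem. Its difference of -0.66 ± 0.07 was 0 without the brain stem (adjusted p = 0.976). Drd2, a dopamine receptor, was lower than the mean (-1.24 ± 0.11), with a bulb mean of 8.39 and a cortical mean of 11.10. On the whole list of 12, 3 genes were higher and 6 lower.

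GABA synthesis and transport genes went 1 way. All 6 measured were higher, with a median of 0.81. Gad1, glutamate decarboxylase, which makes GABA, was at 12.96, 12.86 and 12.99 in bulbs and at 11.47 to 11.88 elsewhere (2.41-fold, 1.27 ± 0.07, adjusted p = 4.44e-10). Gad2, the other decarboxylase, was 1.69-fold higher, and Slc32a1, the vesicular GABA transporter, 1.60-fold, both with all bulbs above all other samples. Slc6a11, a glial GABA transporter, was not above the brain stem (12.95 against 12.98, adjusted p = 0.906).

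The receptors did not follow. Of 12 subunits of the GABA-A receptor, 4 were higher and 5 lower. Gabra5 was at 12.17, 12.13 and 12.28 in bulbs, with means of 11.56 in cortex, 11.36 in brain stem and 6.99 in cerebellum (4.68-fold). Gabra6, a subunit of cerebellar granule cells, was at 5.48, 5.59 and 5.36 in bulbs, near the cortical mean of 5.27, while the cerebellum had 12.46. Glycine transmission had 1 higher gene among 7, Gphn (0.24 ± 0.07), and 4 lower. Gphn did not pass without the cortex (adjusted p = 0.185), mouse 2 (adjusted p = 0.052) or mouse 3 (adjusted p = 0.125). Slc6a5, the neuronal glycine transporter, was at 6.95, 6.51 and 6.74 in bulbs, with means of 6.71 in cortex, 10.33 in cerebellum and 11.97 in brain stem.

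Glutamate receptors showed single members apart. Of 7 metabotropic receptors 4 were higher and 1 lower. Of 16 ionotropic subunits 4 were higher (25%) and 3 lower (18.8%), against 15.3% and 21.2% of all genes. Grm2, a presynaptic receptor, was at 10.47, 10.61 and 10.86 in bulbs and at 8.97 to 9.82 elsewhere (2.38-fold). Grm8 was at 9.59, 9.54 and 9.62 in bulbs and at 8.12 to 8.99 elsewhere (0.97 ± 0.07). Grin2b, an NMDA receptor subunit, was 2.08-fold above the mean of the regions but below the cortex (11.26 against 11.74, adjusted p = 0.00875), and its difference was 0.14 without the cerebellum (adjusted p = 0.352). Grm5 was 0.59 ± 0.07 above the mean of 3 regions, and its difference was -0.43 without the cerebellum (adjusted p = 0.000724). Grik4, a kainate receptor subunit, was lower than in every region (-1.38 ± 0.08).

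Voltage-gated potassium channels varied in both directions, with 11 of 23 higher and 9 lower. Kcnb2 was at 10.71, 11.09 and 11.02 in bulbs and at 7.61 to 9.72 elsewhere (4.30-fold). Kcna4 was 3.41-fold and Kcnh5 3.81-fold above the mean of the regions, both with every bulb above every other sample. The log2 differences of Kcna4 were 0.77 from cortex, 1.26 from brain stem and 3.28 from cerebellum. Those of Kcnh5 were 0.45, 0.95 and 4.39. Kcnh3 was 4.90-fold above the mean and, at 10.94 against 10.42, not past the test against the cortex (adjusted p = 0.0579). Kcnc4 was lower in the bulb (-1.42 ± 0.10), as was Kcnab1, a beta subunit among the 10 genes with the largest negative differences (-2.79 ± 0.08).

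Neuropeptide genes were likewise split, 12 of 28 higher and 10 lower. Trh was at 10.97, 10.63 and 10.71 in bulbs, with means of 8.49 in brain stem, 7.64 in cortex and 6.20 in cerebellum. Nppa, the precursor of atrial natriuretic peptide, was at 9.24, 9.14 and 8.72 in bulbs and at 6.69 to 7.12 elsewhere (4.36-fold). Npy, neuropeptide Y, was at 12.54, 11.69 and 11.78, above the cortical mean of 11.24 (3.12-fold over the mean of the regions). Pmch, a peptide of the lateral hypothalamus, was at 5.76, 5.72 and 5.50 in bulbs, like the cerebellum, and at 10.30, 10.71 and 9.92 in brain stems.

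Signals for growth and guidance included several genes highest in the bulb. Igf1, insulin-like growth factor 1, was at 9.52, 9.48 and 9.53 in bulbs and at 7.58 to 8.39 elsewhere (2.88-fold). Of 16 genes of this system 8 were higher and 3 lower, among the higher Igfbp2 (2.01-fold) and Irs1 (1.87-fold). Sema3c, a secreted semaphorin, was at 10.69, 10.80 and 10.83 in bulbs and at 7.76 to 9.06 elsewhere (4.72-fold). Slit2, a repellent of neuroblasts and axons, was at 7.24, 7.62 and 7.48 in bulbs, below the cerebellar mean of 7.94 and means of 9.72 in cortex and 9.71 in brain stem (-1.68 ± 0.08). Guidance ligands had 8 of 21 higher (38.1%, against 15.3% of all genes) and 5 lower (23.8%, against 21.2%). Without the cerebellum 5 of the 21 were higher. Against the cerebellum alone 14 were higher and 3 lower (16.3% and 21.3% of all genes). Against the cortex 6 were higher and 6 lower (16.4% and 19.3%), and against the brain stem 7 were higher and 3 lower (14.1% and 18.5%). Guidance receptors had 6 of 27 higher (22.2%) and 14 lower (51.9%, median -0.34). Epha5, an ephrin receptor, was 3.32-fold above the mean of the regions. Its log2 differences were 0.67 from cortex, 1.06 from brain stem and 3.47 from cerebellum. The netrin receptor Unc5c was lower (-1.50 ± 0.09). Of 17 genes of the retinoic acid pathway 6 were higher and 6 lower, with Crabp1, a binding protein, 2.71-fold higher and Aldh1a1, a synthesising enzyme, lower (-1.49 ± 0.09).

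**Figure D3:**
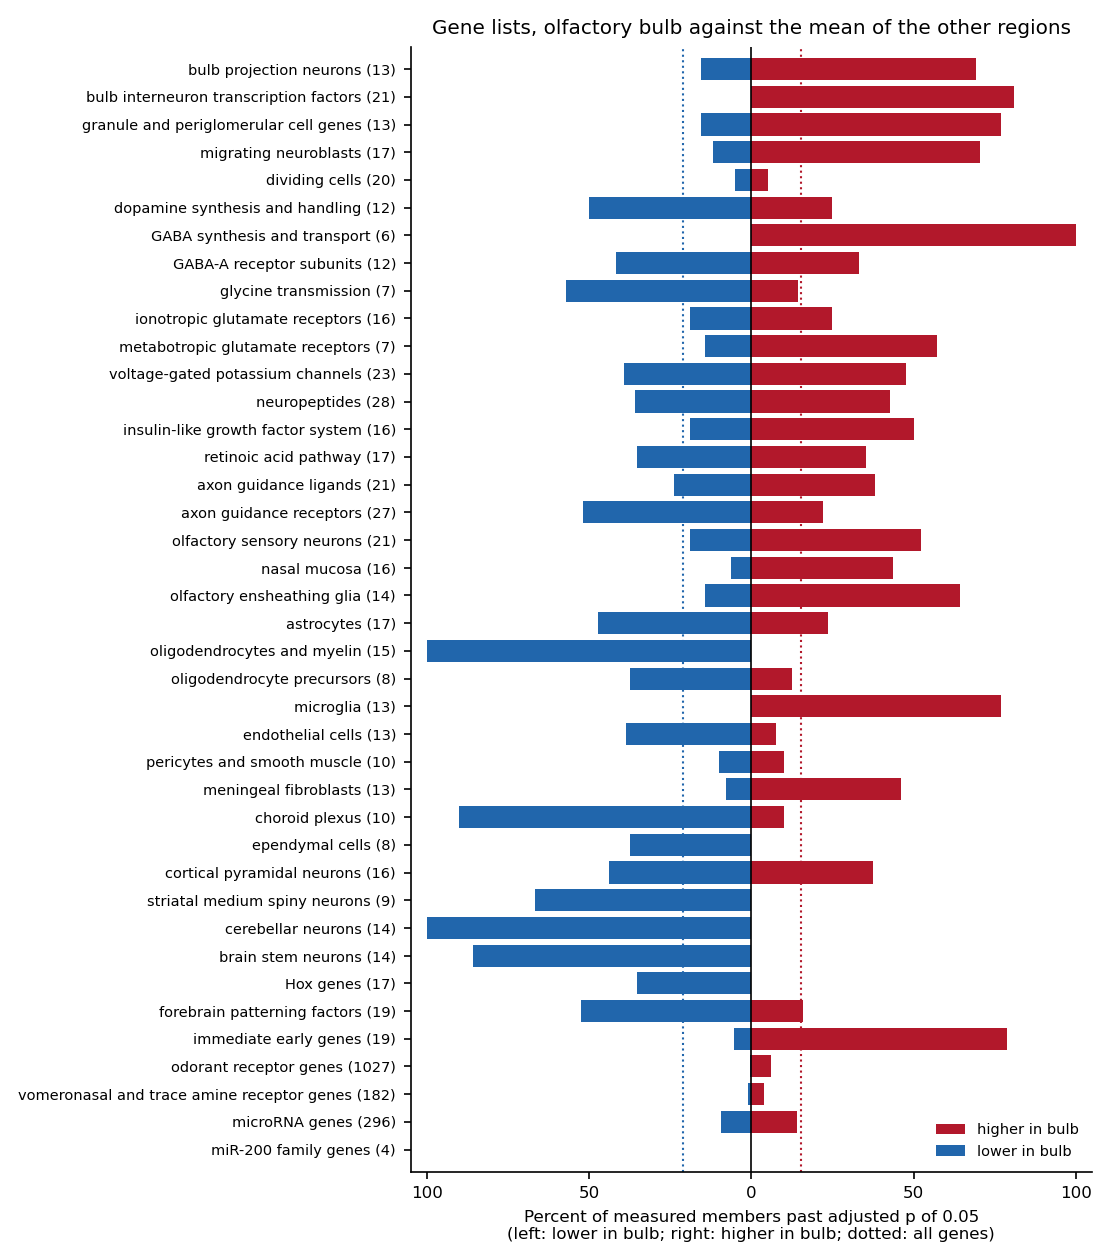
Bars give the percentage of measured members of each gene list (number in brackets) that were higher (right) or lower (left) in the bulb at an adjusted p under 0.05, and the dotted lines mark the same percentages over all genes, 15.3% and 21.2%. Lists of bulb neurons, neuroblasts, GABA synthesis, microglia and immediate early genes extend far to the right, and myelin, choroid plexus, cerebellar and brain stem lists to the left.

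Genes of olfactory sensory neurons, whose cell bodies lie in the nose and whose axons form the nerve layer of the bulb, were measured in full. Of 21, 11 were higher and 4 lower, with a median of 0.30. When dim genes, some members of this list among them, were left out, 6 of the members kept were higher, as were 2265 of the 10981 genes kept. The 3 genes with the largest differences, S100a5, Omp and Stoml3, exceeded 18-fold. Stoml3, a stomatin-like protein of olfactory cilia, was at 12.02, 11.54 and 11.65 in bulbs, and its other values ran from 6.88 in a cortex to 8.45 in a brain stem. Cnga2, the channel subunit that carries the odour response, was at 6.66, 6.73 and 6.27 in bulbs and at 5.04 to 5.33 elsewhere (2.58-fold, adjusted p = 8.61e-09). Ebf1, a factor of this lineage that other brain cells also express, was lower in the bulb: it was at 7.86, 8.02 and 8.25, with means of 8.37 in cortex, 9.79 in brain stem and 10.72 in cerebellum (-1.58 ± 0.08).

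The sequences upstream of these genes were read from RefSeq (GRCm38.p6), since Ebf factors are known to bind the sequence CCCNNGGG, which is its own reverse complement. In the 250 bases before the start, the motif was found in 7 of the 16 listed genes with an entry, in 5 of 9 that were higher in the bulb and in 2 of 7 that were not. It was present in 13.4% of all 27025 genes with an entry. The windows of Cnga2, S100a5 and Stoml3, the genes described in the paragraph before that were higher in the bulb and have an entry, are shown on the plus strand, with the motif in capitals. Lhx2, also on the list and higher in the bulb, has 2 windows without the motif, which are not shown. The Cnga2 window lies at chrX:71991599-71991848, that of S100a5 at chr3:90608272-90608521 and that of Stoml3 at chr3:53488457-53488706.
Cnga2: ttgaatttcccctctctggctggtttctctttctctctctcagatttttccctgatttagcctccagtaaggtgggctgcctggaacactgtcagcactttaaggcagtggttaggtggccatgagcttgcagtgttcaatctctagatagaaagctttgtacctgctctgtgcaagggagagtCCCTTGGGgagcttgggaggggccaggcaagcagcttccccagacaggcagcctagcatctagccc
S100a5: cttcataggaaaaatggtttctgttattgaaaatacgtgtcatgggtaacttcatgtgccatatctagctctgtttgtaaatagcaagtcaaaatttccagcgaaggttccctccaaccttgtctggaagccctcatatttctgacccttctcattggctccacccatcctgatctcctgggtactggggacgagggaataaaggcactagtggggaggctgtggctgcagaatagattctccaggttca
Stoml3: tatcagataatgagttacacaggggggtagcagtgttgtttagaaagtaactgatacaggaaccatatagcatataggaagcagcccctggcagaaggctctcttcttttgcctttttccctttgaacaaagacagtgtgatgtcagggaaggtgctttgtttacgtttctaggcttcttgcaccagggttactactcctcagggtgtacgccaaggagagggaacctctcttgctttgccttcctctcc
In Cnga2 the match begins 66 bases before the start, and the other windows hold none. A match of letters is a description and not a measured binding site.

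Some genes of the nasal mucosa, which is not part of the brain, were also higher in the bulb samples. Of 16 measured, 7 were higher, 1 was lower and 8 did not pass the test (median 0.27). When dim genes, some members of this list among them, were left out, 3 of the members kept were higher, as were 2265 of the 10981 genes kept. Cyp2g1, a cytochrome P450 of the olfactory mucosa, was at 7.93, 9.05 and 7.2 in bulbs and at 5.37 to 5.73 elsewhere (5.66-fold, 2.50 ± 0.21). The 3 bulbs differed widely from each other, with mouse 2 highest and mouse 3 lowest, and all lay above every other sample. The differences of the single mice were 2.30, 3.53 and 1.67, a spread that the SE of 0.21 does not measure. Scgb1c1, a secretoglobin, was at 8.43, 7.90 and 7.64 in bulbs and at 5.34 to 5.75 elsewhere (5.43-fold). Cbr2, a carbonyl reductase, and Bpifb4, a secreted lipid-binding protein, were 2.14-fold and 2.11-fold higher. The mean log2 value over the 16 genes was 6.65, 6.71 and 6.35 in the bulbs and between 5.90 and 6.10 in the other samples. The mean over the sensory neuron list was 8.57, 8.56 and 8.42 in the bulbs and between 7.63 and 7.93 elsewhere. Both means were lowest, among bulbs, in mouse 3. What part the mucosa has in the sensory neuron values was not tested.

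Odorant receptor genes were near the bottom of the scale in every region. Of 1027 measured, 61 (5.94%) were higher and 5 (0.487%) lower, fewer in each direction than among all genes. The 61 became 19 without mouse 2 and 35 without mouse 1, while genes higher in the bulb over the whole array numbered 2140 and 2727 in these fits, against 3050. Olfr111 stood out, at 7.33, 6.68 and 6.98 in bulbs and at 5.19 to 5.64 elsewhere (2.96-fold, adjusted p = 1.76e-09). Olfr727 was at 6.00, 5.76 and 5.15 in bulbs and at 4.26 to 4.48 elsewhere (2.43-fold). Vomeronasal and trace amine receptor genes had 7 of 182 higher (3.85%) and 2 lower (1.1%), below the shares of all genes. Among the higher was Vmn1r206, at 5.31, 5.26 and 5.67 in bulbs and at 4.44 to 4.75 elsewhere.

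Olfactory ensheathing glia genes were higher in 9 of 14 and lower in 2. Frzb, a secreted Wnt antagonist, was at 10.82, 10.25 and 10.49 in bulbs and at 6.65 to 9.21 elsewhere (7.13-fold). Fabp7, a fatty acid-binding protein of radial and ensheathing glia, was at 13.58, 13.39 and 13.56 in bulbs and at 11.89 to 12.51 elsewhere (2.53-fold). S100b, on this list and that of astrocytes, was lower than the mean of the regions (-0.58 ± 0.08). Astrocyte genes were higher in 4 of 17 and lower in 8, with 1 higher without the cortex or without mouse 2, and 2 higher without mouse 3. The regions differed: 9 of the 17 were higher and 4 lower than in the cortex (16.4% and 19.3% of all genes). Against the cerebellum 4 were higher and 8 lower (16.3% and 21.3%), and against the brain stem 1 was higher and 11 lower (14.1% and 18.5%).

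Myelin genes were lower without exception. All 15 measured were lower in the bulb, 13 of them lower than in each of the 3 regions, with a median of -1.10. Ermn, ermin, a cytoskeletal protein of myelinating oligodendrocytes, was at 8.80, 8.99 and 8.57 in bulbs, with means of 9.80 in cerebellum, 10.33 in cortex and 11.06 in brain stem (-1.61 ± 0.10, adjusted p = 2.08e-09). Ugt8a, which makes the galactolipids of myelin, was at 9.18, 9.40 and 9.23 in bulbs and at 10.22 to 11.27 elsewhere (-1.45 ± 0.07). Mag, myelin-associated glycoprotein, was lower by a similar size (-1.41 ± 0.10). The mean log2 value over the list was 9.59, 9.81 and 9.56 in bulbs, between 10.25 and 10.52 in cortex and cerebellum and between 11.18 and 11.37 in brain stem. Precursor genes of this lineage were higher in 1 of 8, Bmp4 (0.65 ± 0.09), and lower in 3. The count of lower genes was 0 without the cortex, 1 without the brain stem, 1 without mouse 2 and 6 without the cerebellum.

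Microglia genes were higher in 10 of 13 and lower in none (median 0.32). The comparison with each region qualified this: 12 of the 13 were higher than in the cerebellum (16.3% of all genes), 3 higher and 2 lower than in the cortex (16.4% and 19.3%), and 3 higher than in the brain stem (14.1%). Fcrls was at 7.92, 7.98 and 8.05 in bulbs, at a mean of 7.74 in cortex and at 6.39 in cerebellum. Without the cerebellum 3 of the 13 were higher and 1 lower. Among vascular and meningeal lists, endothelial genes were higher in 1 of 13 and lower in 5 (2 without mouse 1 or mouse 2). Pericyte genes were higher in 1 of 10 and lower in 1, both shares (10%) below those of all genes. Meningeal fibroblast genes were higher in 6 of 13 and lower in 1, among the higher Ogn, osteoglycin (0.81 ± 0.16). Of these 13, 7 were higher than in the cortex (16.4% of all genes) and 7 higher than in the brain stem (14.1%). Against the cerebellum 2 were higher and 3 lower (16.3% and 21.3%).

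Choroid plexus genes were lower in 9 of 10, with a median of -1.56. Ttr, transthyretin, which the choroid plexus secretes, was at 7.15, 7.11 and 6.48 in bulbs and at 8.95 to 13.63 elsewhere, the largest negative difference of all genes (-5.64 ± 0.45, adjusted p = 5.04e-08). Otx2, a homeobox factor of this tissue, was at 6.5, 6.6 and 6.32 in bulbs and at 7.82 to 10.14 elsewhere (-2.36 ± 0.09), and Kl, klotho, at 6.92, 7.14 and 6.98 in bulbs and at 7.78 to 10.37 elsewhere. The mean over the list was 7.05, 7.02 and 6.93 in bulbs, between 9.38 and 9.68 in cerebella and between 7.44 and 8.65 in brain stems, where mouse 3 had the lowest value. The exception, named after its value was seen, was Aqp1, the water channel aquaporin 1, at 8.59, 8.72 and 8.75 in bulbs and at 6.62 to 8.16 elsewhere (2.51-fold). Ependymal genes were lower in 3 of 8.

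Among the 10 genes with the largest negative differences Pvalb, parvalbumin, followed Ttr. It was at 8.01, 8.10 and 7.54 in bulbs, with means of 10.17 in cortex, 11.46 in brain stem and 12.69 in cerebellum (-3.56 ± 0.09, adjusted p = 1.13e-13). Scn4b, a sodium channel beta subunit, was at 6.30, 6.57 and 6.18 in bulbs and at 8.92 to 10.30 elsewhere (-3.31 ± 0.11). Syt2, a synaptotagmin of fast synapses, was at 7.12, 7.46 and 7.06 in bulbs and at 9.04 to 11.16 elsewhere (-3.07 ± 0.10). The calcium-binding proteins Cabp7 (-2.94 ± 0.10) and Caln1 (-2.90 ± 0.10) were lower too. Prdm8 (-2.72 ± 0.12) and Prox1 (-2.62 ± 0.09), both transcriptional regulators, completed the 10 with Calb1 and Kcnab1. In every one all 3 bulbs lay below all 9 other samples, which the rule for naming them required.

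Genes of neurons of the other regions were mostly lower than the mean of the regions. All 14 cerebellar genes were lower (median -1.60), but 3 of them were lower than in each region, and without the cerebellum 6 were lower and 2 higher. Car8, of Purkinje cells, was at 8.04, 8.01 and 7.84 in bulbs and at means of 12.59 in cerebellum and 8.53 in cortex. Of 14 brain stem genes 12 were lower (median -0.76), and without the brain stem 6 were lower and 2 higher. Tph2, which makes serotonin in the raphe nuclei, was at 5.72, 5.79 and 5.54 in bulbs, near the cortical mean of 5.93, and at a mean of 9.74 in brain stem. Hox genes, which pattern the hindbrain, were lower in 6 of 17, and without the brain stem none was lower and 2 were higher. Striatal genes were lower in 6 of 9, Ppp1r1b among them (-1.22 ± 0.07) with a bulb mean of 8.98 and a cortical mean of 10.98. All 9 were lower than in the samples labelled cortex (19.3% of all genes) and 6 lower than in the brain stem (18.5%). Against the cerebellum, however, 6 were higher and 2 lower (16.3% and 21.3% of all genes). Without the cortex 4 of the striatal genes were higher and 3 lower than the mean. Of 16 cortical pyramidal genes, 6 were higher and 7 lower. Bcl11b, of deep cortical layers and of GABAergic neurons, was at 9.55, 10.25 and 10.07 in bulbs, not past the test against the cortical mean of 9.84 (adjusted p = 0.578). Neurod6 was at 6.4, 6.22 and 6.19 in bulbs and at 9.51 to 9.62 in cortices. Among forebrain patterning factors 3 of 19 were higher (15.8%, against 15.3% of all genes) and 10 lower (52.6%, against 21.2%).

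Immediate early genes, which neurons transcribe within minutes of activity, were higher in 15 of 19 and lower in 1 (median 0.87). Fosb, a partner of Jun, was at 9.92, 10.28 and 10.21 in bulbs and at 7.55 to 9.49 elsewhere (3.34-fold, 1.74 ± 0.08, adjusted p = 7.89e-11). Nr4a1, a nuclear receptor, was at 12.11, 11.74 and 12.14 in bulbs and at 9.19 to 11.30 elsewhere (3.36-fold). Egr2, a zinc finger factor, was 4.15-fold above the mean of the regions, but its bulb values of 9.64, 9.40 and 10.24 overlapped the cortical values of 9.14, 9.20 and 9.52 (adjusted p = 0.126). Against the cortex alone, 7 of the 19 were higher and 2 lower (16.4% and 19.3% of all genes). Against the cerebellum 14 were higher and 1 lower (16.3% and 21.3% of all genes), and against the brain stem 18 were higher and none lower (14.1% and 18.5% of all genes). The mean over the list was 9.74, 9.77 and 9.94 in bulbs, 9.54 to 9.60 in cortices, 8.43 to 8.68 in cerebella and 8.33 to 8.84 in brain stems. The labels used here give no time of day or interval to dissection.

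Of 296 microRNA genes on the array 42 (14.2%) were higher and 28 (9.46%) lower in the bulb, shares below those over all genes. Without mouse 2, 27 were higher. The probe sets do not tell the arms of a hairpin or the mature form from its precursor. For the 8 named genes the mature sequences are given from RefSeq, with the seed, bases 2 to 8, in capitals, because the seed decides which messages a microRNA can pair with. The first sequences belong to the genes higher in the bulb.
miR-490-5p: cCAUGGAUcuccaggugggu
miR-490-3p: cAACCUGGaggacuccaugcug
miR-708-5p: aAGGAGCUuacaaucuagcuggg
miR-708-3p: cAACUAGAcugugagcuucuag
miR-128-1-5p: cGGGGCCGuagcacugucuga
miR-128-3p: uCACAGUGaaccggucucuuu
miR-181b-5p: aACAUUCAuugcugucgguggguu
miR-181b-1-3p: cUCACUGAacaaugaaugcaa
miR-212-5p: aCCUUGGCucuagacugcuuacu
miR-212-3p: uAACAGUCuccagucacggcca
miR-132-5p: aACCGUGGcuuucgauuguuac
miR-132-3p: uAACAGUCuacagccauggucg
The 2 genes lower in the bulb have these sequences.
miR-380-5p: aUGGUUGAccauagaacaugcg
miR-380-3p: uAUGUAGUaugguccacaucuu
miR-690: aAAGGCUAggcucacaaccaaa
The 15 sequences have 14 distinct seeds. The shared one is that of miR-212-3p and miR-132-3p, which lie near each other on chromosome 11 (GRCm38.p6), at 75173443 to 75173464 and 75173723 to 75173744 on the plus strand.

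Mir490 had the largest difference of the microRNA genes. It was at 7.24, 7.22 and 7.45 in bulbs and at 5.02 to 5.82 elsewhere (3.55-fold, 1.83 ± 0.08, adjusted p = 3.18e-11). Mir708 was at 8.06, 8.50 and 8.43 in bulbs, with the cortex next at 7.44, 7.74 and 8. Mir128-1 was 2.45-fold above the mean of the regions, and its bulb mean of 9.82 did not pass the test against the cortical mean of 9.45 (adjusted p = 0.0718). Mir181b-1 was at 10.13, 8.97 and 9.36 in bulbs, overlapping cerebellar values of 9.33, 9.60 and 9.45. The pair with a common seed went the same way: Mir212 was at 9.58, 9.12 and 9.45 in bulbs and at 7.99 to 8.75 elsewhere (2.06-fold), and Mir132 at 6.69, 7.47 and 7.67 in bulbs and at 6.10 to 6.75 elsewhere (1.88-fold). The Mir132 value of mouse 1 lay inside the range of the other samples. Mir380 was at 5.92, 5.87 and 6.64 in bulbs and at 6.89 to 7.76 elsewhere (-1.20 ± 0.16), and Mir690 was lower too (-0.95 ± 0.09). None of 4 measured genes of the miR-200 family passed the test. Mir200b was nearest (0.16 ± 0.07, adjusted p = 0.069), and it passed with the first array of each sample only (adjusted p = 0.0433), with a trended robust prior (adjusted p = 0.0448) and, at the threshold, with arrays centred on their medians (adjusted p = 0.05).

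**Figure D4:**
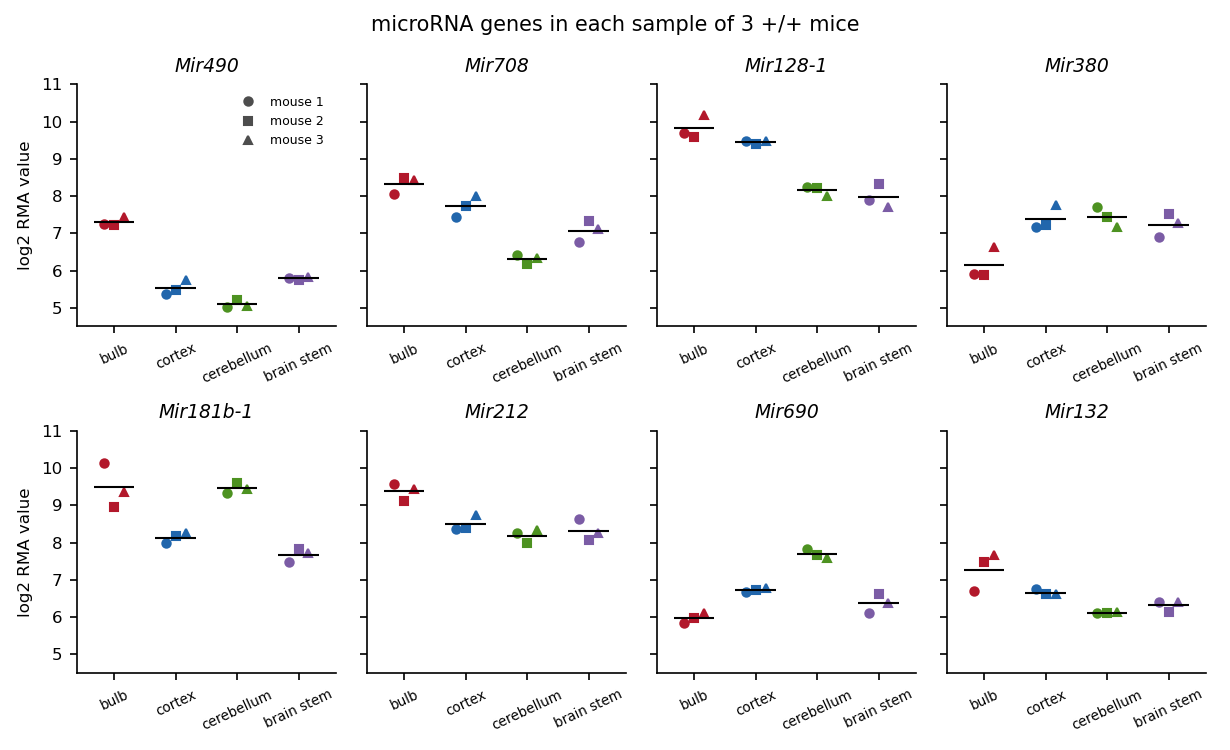
The log2 RMA value of 8 microRNA genes is plotted for each of the 12 region samples of +/+ mice, with the bulb at the left of each panel; symbols are mice and the black line is the mean of 3. Mir490 and Mir212 have all bulbs above all other samples, and Mir380 has all bulbs below them.

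The same contrast was measured in the 2 df/+ and 2 dp/+ mice, whose 16 region samples share no array with the +/+ mice. There 8385 genes (42.1%) differed between the bulb and the other regions, 18.4% of all genes being higher and 23.6% lower. Of the 763 genes at least 2-fold higher or lower in +/+ bulbs, 751 (98.4%) were called in the same direction and 761 had the same sign. The 1 gene called in the opposite direction, named after its value was seen, was the Y RNA gene Rny1, at 1.11 in +/+ mice and -0.24 in the others. Among all genes called higher in +/+ bulbs, 2139 of 3050 were also called higher in the other mice, and of those lower 3179 of 4223. For myelin genes this was 15 of 15, for interneuron factors 15 of 17 and for immediate early genes 13 of 15. For odorant receptors it was 19 of 61, and for microRNA genes 28 of 42 higher and 4 of 28 lower.

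A test of the difference itself, the +/+ contrast minus that of the other mice, called 891 genes (4.47%), with 4185 at an unadjusted p of 0.05. Without the mouse as a block it called 298. The error of this test was pooled over all region samples and is not the spread of the contrast between mice. The difference was not tested with the mouse as the unit. Some genes of bulb neurons named above were close between the groups of mice: Th had 3.38 in +/+ mice and 3.22 in the others, Dlx1 3.78 and 3.97, Tbx21 2.56 and 2.46, and Gad1 1.27 and 1.37. Others lay further apart without passing the test: Nmb had 3.12 and 2.75 (adjusted p = 0.272) and Dcx 2.85 and 3.22 (adjusted p = 0.0692). Omp had 4.25 and 3.72, a difference that did not pass the test (adjusted p = 0.0597). S100a5, with 5.27 in +/+ mice and 4.31 in the others, differed by this test (adjusted p = 0.00672), as did Cyp2g1 with 2.50 and 1.22 (adjusted p = 0.033). Values of single mice overlapped between the groups for Cyp2g1, at 1.67 to 3.53 and 0.17 to 2.05, but not for S100a5.

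**Figure D5:**
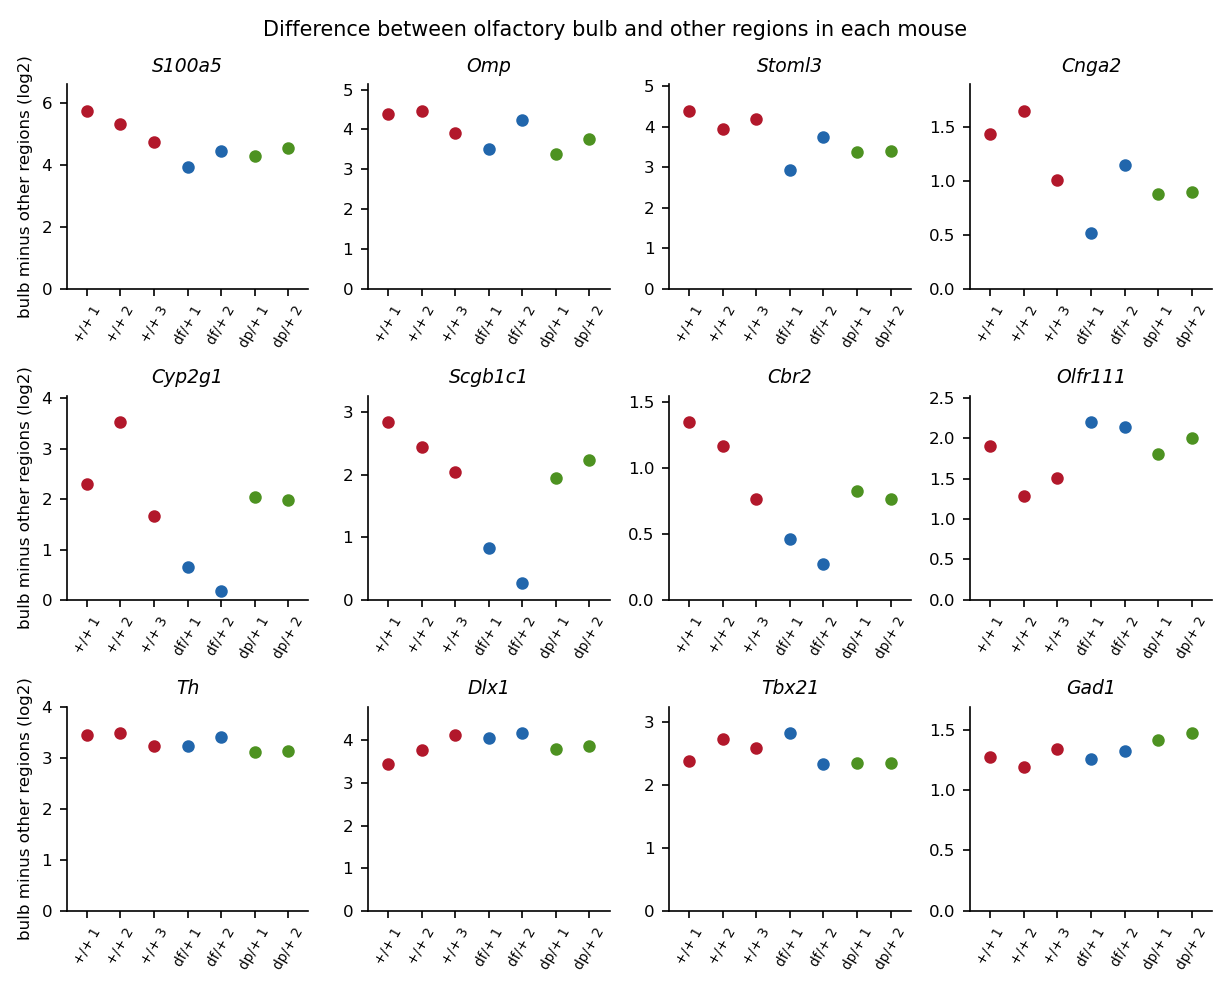
Each point is the bulb value minus the mean of the 3 other regions of 1 mouse (log2), with +/+ mice at the left and df/+ and dp/+ mice at the right of each panel; vertical axes start at 0 and differ between panels. Cyp2g1 and Scgb1c1 spread widely between mice, while Th, Dlx1, Tbx21 and Gad1 vary little.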

How the data were processed

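Whole-tissue RNA of 4 brain regions was measured on Affymetrix gene-level arrays. The authors summarised 35556 probe sets over 37 arrays by RMA in Affymetrix Expression Console, per the submitters' processing notes, and deposited values on a log2 scale; that the base is 2 was read from their range. Versions and genome build are not given in the sources used here. RMA equalises distributions between arrays, so differences are relative to each array's other genes; precision depends on how many arrays a group has.

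Genes were named through GEO's platform annotation. Of the probe sets, 21789 had 1 gene symbol (21698 found in RefSeq's gene table), 1621 had several and 12146 had none. Where several probe sets had the same symbol the brightest on average was kept, leaving 19938 genes. Arrays of 1 sample were averaged; the bulb of mouse 3 is the array labelled as its second technical repeat alone. limma 3.58.1 in R 4.3.3 fitted region and mouse over the 12 +/+ samples, with Benjamini-Hochberg adjustment. Regions were paired by the biological replicate number in the labels, which was taken as the mouse. In simulated data for 19938 genes, 100 genes were changed in the bulb at each size. The fit recovered 82% of 0.5 log2 changes and 99% of 1 log2 changes, with 4 false calls. Each gene's noise had the same SD in every region and the other regions did not differ, so the error rate of the real calls was not measured. The 4 other mice were fitted the same way, and the difference between the groups of mice was tested as an interaction.

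Named genes were the 15 with the largest positive and 10 with the largest negative differences among those passing the test with bulbs outside the range of the 9 other samples, up to 5 called members of each list, up to 8 microRNA genes, and 6 standard markers. The comparison, members and lists were chosen with earlier results of these data known. Alternatives changed the block, the arrays averaged, the probe set rule, a filter on dim genes, the normalization, the prior, array weights, the regions and the mice.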

Additional observations from a re-analysis of the deposited data

Results flagged for a closer look

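For 17 of the named genes the bulb contrast differed between +/+ mice and the 4 df/+ and dp/+ mice by an interaction term in limma, adjusted over all 19938 genes. Each value below is the log2 contrast of +/+ mice minus that of the other mice. The SE and p of this term pool all region samples, and the difference was not tested with the mouse as the unit.

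Of the named genes of the nasal mucosa, Cyp2g1 and Scgb1c1 had larger contrasts in +/+ mice, while the difference did not pass for Cbr2 (adjusted p = 0.0665), Cyp2f2 (adjusted p = 0.108) and Bpifb4 (adjusted p = 0.125). For Cyp2g1 the difference was 1.28 ± 0.34 (adjusted p = 0.033), with contrasts of 2.30, 3.53 and 1.67 in +/+ mice, 0.66 and 0.17 in df/+ mice and 2.05 and 1.98 in dp/+ mice. Scgb1c1 differed by 1.11 (adjusted p = 0.0261), with 2.84, 2.44 and 2.04 in +/+ mice, 0.83 and 0.27 in df/+ mice and 1.95 and 2.24 in dp/+ mice. In both genes the df/+ mice had the lowest contrasts of all mice, and +/+ and dp/+ mice overlapped. S100a5 differed by 0.96 (adjusted p = 0.00672), Stoml3 by 0.82 (adjusted p = 0.022), Olfr727 by 0.71 (adjusted p = 0.015) and Cnga2 by 0.50 (adjusted p = 0.0249). For the sensory neuron genes Omp (adjusted p = 0.0597) and Ebf1 (adjusted p = 0.751) it did not pass. For S100a5 and Stoml3 all +/+ mice lay above all others.

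Among glial genes, C1qb differed by 0.50 (adjusted p = 0.0129), P2ry12 by 0.42 (adjusted p = 0.0202), C1qa by 0.40 (adjusted p = 0.0384) and Bmp4 by 0.47 (adjusted p = 0.0332). The difference did not pass for the other named microglia genes, Fcrls (adjusted p = 0.663) and Tyrobp (adjusted p = 0.32). Nor did it pass for the named precursor genes Pdgfra (-0.31, adjusted p = 0.0747), Tnr (-0.18, adjusted p = 0.342) and Olig2 (0.12, adjusted p = 0.503). Negative values that passed, with larger positive contrasts in df/+ and dp/+ mice, were those of Epha5 (-0.41, adjusted p = 0.0135), Grm5 (-0.39, adjusted p = 0.0154), Kcna4 (-0.33, adjusted p = 0.0334) and Grm8 (-0.32, adjusted p = 0.0349).

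Of microRNA genes, Mir490 differed by -0.69 (adjusted p = 0.0057), with 1.84, 1.74 and 1.90 in +/+ mice and 2.39 to 2.63 in the others. Mir128-1 differed by -0.82 (adjusted p = 0.0164). Mir380 differed by -1.11 (adjusted p = 0.00714): it was lower in the bulb of all 3 +/+ mice, at -1.33, -1.52 and -0.76, and lay between -0.38 and 0.38 in the others.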

How the results depend on the processing

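Over 16 alternatives, 2965 of 3058 values of named genes kept their direction and side of the threshold, 79 lost the call, 4 gained it and 10 changed sign. With 1 mouse left out, genes higher in the bulb numbered 2140 to 2727, lower 3042 to 3796, at least 2-fold higher 412 to 429 and lower 329 to 373, highest in the bulb 718 to 964 and lowest 751 to 1063. Genes lowest in the bulb numbered 2110 without the cerebellum, where 2 regions have to be passed and not 3. The 2-fold counts there were 323 higher and 448 lower, which turns the balance of 414 and 349. Without the replicate block, which pairs regions of 1 mouse, the counts were 2679 higher, 3798 lower, 414 and 349 by 2-fold, 935 highest and 1076 lowest, but the difference between groups of mice had 298 calls against 891; the cause was not tested. Signs changed without the cortex for Drd1 (0.18) and Grm4 (-0.09), without the cerebellum for Grm5 (-0.43), without the brain stem for Slc17a7 (-0.19), Olig2 (0.07), Hoxa5 (0.05), Hoxb5 (0.17), Hoxc5 (0.03) and Hoxd3 (0.07), and for Mir200a with 1 mouse left out, whose values ran from -0.03 to 0.19. Of 1312 list counts 138 moved by over 1.5 times. The share of calls that were higher was 41.9%, and 48.1% after cyclic loess. No detection calls were used, so values near the bottom of the scale have no stated background.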
